A study of Mus musculus with 2 samples.

Results

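The laminin and integrin genes were taken as all 37 rows of the gene table whose symbol names a laminin chain (11 genes) or an integrin alpha (18 genes) or beta chain (8 genes), out of 32286 features. They were chosen by symbol alone. Of the 37, 34 had at least 50 unique molecular identifiers (UMIs, each standing for a captured RNA molecule) in the classes of nuclei compared, as had 16786 genes in all. Nuclei came from the vagus nerve ganglia, the jugular and nodose ganglia, where the sensory neurons of the vagus have their somata. A pool of 14 ganglia from 7 female mice and a pool of 16 ganglia from 8 male mice gave 1 library each, with 3791 and 4923 nuclei and 17435300 and 27529730 UMIs. All mice were Rosa26-floxed-STOP-Cas9-eGFP mice on chow, bought at 8 to 9 weeks of age, and all had received AAVrg-Cre, a retrograde virus carrying Cre recombinase, in the liver 4 weeks before, so that no group was free of the transgene, the virus or Cre. With 1 pooled library of each sex there was no replicate of a group, sex and library cannot be told apart, no test was made, and every interval covers counting error only.

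Laminins are secreted trimers of an alpha, a beta and a gamma chain that polymerise into the basement membrane, the sheet of matrix around Schwann cells, satellite glia, vessels and perineurium. Integrins are receptors of an alpha and a beta chain that span the membrane and tie matrix or other cells to the cytoskeleton. In peripheral nerve, the alpha 2 laminin chain is known for myelination and its loss for a muscular dystrophy with neuropathy, and the alpha 6 chain pairs with beta 1 or beta 4 as a laminin receptor.

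Nuclei were clustered without the laminin and integrin genes, and clusters were named for the list of marker genes that led them, so that a class name stands for nuclei like that cell type. A total of 12 classes held enough nuclei of both libraries, with 8007 of the 8714 nuclei (91.9%). The smallest were mural cells, with 44 female and 47 male nuclei, and the largest were sensory neurons, with 607 and 1329. Granule cells of the cerebellum (444 female and 25 male nuclei) and cells of the pituitary (67 and 94) carry markers of tissues outside the ganglion, and their values are not read as those of ganglion cells. Because the clusters were rebuilt, a class can hold other nuclei than the class of that name in the study. The libraries shared 8 barcode sequences. Levels are UMIs per 10000 UMIs of a class, with reads in introns counted, coordinates are GRCm38 (mm10), and pairs of values give the female library first and the male library second. Where a class had no UMI of a gene, the level of 3 UMIs is the highest that this count allows, which ran from 0.00186 in the 1329 male sensory neuron nuclei to 0.487 in the 25 male granule cell nuclei.

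The genes confined to a class were 8, namely Lama2, Itgb4, Itga4, Itgb6, Lama3, Itga8, Itgam and Itgal. Each was at least 3-fold higher in its highest class than in the next class in both libraries, which made 8 of the 34 genes counted beside 5.71% of all genes that passed the same UMI minimum. The classes were fibroblasts for Lama2, perineurial cells for Itgb4, sensory neurons for Itgb6, endothelial cells for Lama3, mural cells for Itga8, and leukocytes for Itga4, Itgam and Itgal. Confined stands for this rule alone, not for absence elsewhere. Fibroblasts held 38.1% and 39.2% of the Lama2 level summed over the classes in the female and male library. The highest class was the same in both libraries for 28 of the 34 genes (82.4%), and for 41.5% of all genes with that many UMIs. Just inside the limit lay Lama2, at 3.05-fold (2.84 to 3.27) in the female library, and Itgb6, at 3.39-fold (1.93 to 6.49). Just outside it lay Lamc3, at 4.44-fold (2.70 to 7.05) and 2.66-fold (1.28 to 5.0) and Lama1, at 2.78-fold (1.67 to 4.84) and 2.89-fold (0.508 to 115).

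**Figure D1:**
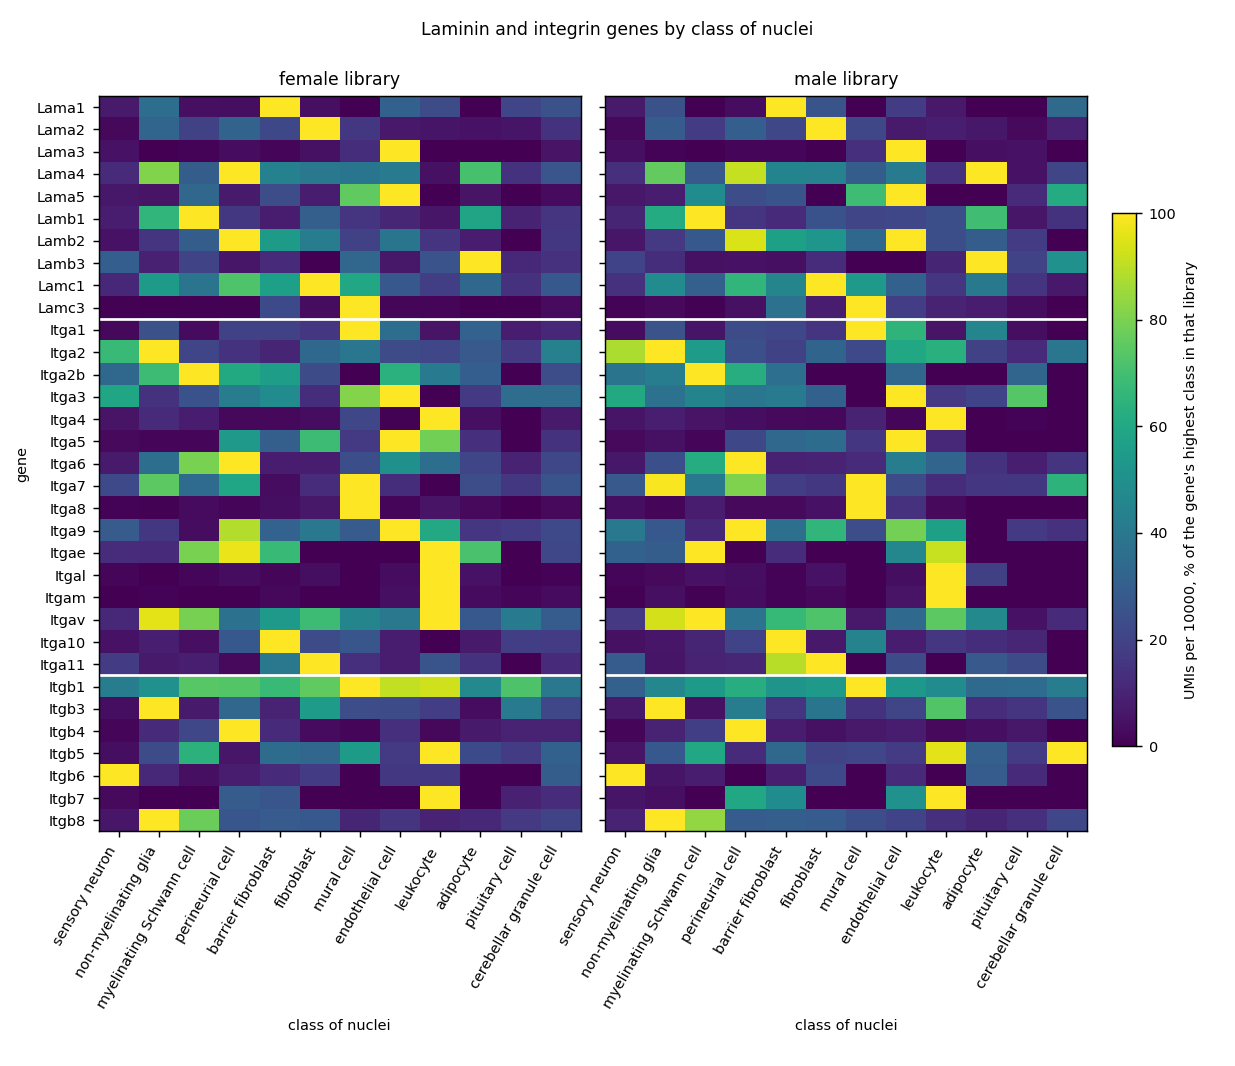
Level of 33 of the 34 genes with at least 50 UMIs (rows) in the 12 classes of nuclei (columns), as percent of the gene's highest class, in the female and the male library; white lines divide laminin, integrin alpha and integrin beta genes. Itgb1 is spread over all classes, whereas Itga8, Itgam and Lama3 fill 1 column in both libraries.

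The promoters of class-confined genes are shown as the sequence at the start of genes that passed the rule above. The table of RefSeq promoters used here, on GRCm38.p6 (the build of the counts), matched 23 of the 37 genes. Sequences are shown for 5 of the 8 class-confined genes, which is not a count of the matches among the 8. The 250 bases before the start are at chr2:12301945-12302194 on the minus strand for Itga8, chr2:60722604-60722853 on the minus strand for Itgb6, chr2:79255176-79255425 on the plus strand for Itga4, chr7:128062390-128062639 on the plus strand for Itgam and chr10:27616943-27617192 on the minus strand for Lama2. The Lama2 start lies 2816 bases from the gene start in GENCODE, and the others lie 0 to 40 bases from it. Capitals mark matches on either strand to the GC box (GGGCGG), the TATA box (TATAAA), an ETS site (GGAAGT), an AP-1 site (TGANTCA) or the CArG box bound by serum response factor; none of the marked matches overlap each other.
Itga8: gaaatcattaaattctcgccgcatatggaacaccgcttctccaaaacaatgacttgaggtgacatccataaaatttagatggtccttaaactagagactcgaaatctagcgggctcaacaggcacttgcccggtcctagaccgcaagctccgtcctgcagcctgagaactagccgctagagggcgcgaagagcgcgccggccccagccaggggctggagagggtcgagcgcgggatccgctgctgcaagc
Itgb6: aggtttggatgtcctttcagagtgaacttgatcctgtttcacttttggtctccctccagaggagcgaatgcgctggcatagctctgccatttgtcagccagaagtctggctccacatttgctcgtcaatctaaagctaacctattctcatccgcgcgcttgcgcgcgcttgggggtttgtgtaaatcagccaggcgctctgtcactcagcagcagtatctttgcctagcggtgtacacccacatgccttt
Itga4: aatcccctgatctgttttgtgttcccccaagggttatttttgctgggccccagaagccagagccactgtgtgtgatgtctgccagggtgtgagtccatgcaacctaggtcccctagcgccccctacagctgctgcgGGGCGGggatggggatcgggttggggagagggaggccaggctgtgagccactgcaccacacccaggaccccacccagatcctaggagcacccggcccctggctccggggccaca
Itgam: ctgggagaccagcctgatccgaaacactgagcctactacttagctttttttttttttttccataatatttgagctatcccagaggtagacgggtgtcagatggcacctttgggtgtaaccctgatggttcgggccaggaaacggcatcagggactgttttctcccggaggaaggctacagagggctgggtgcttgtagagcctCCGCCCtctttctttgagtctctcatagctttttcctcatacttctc
Lama2: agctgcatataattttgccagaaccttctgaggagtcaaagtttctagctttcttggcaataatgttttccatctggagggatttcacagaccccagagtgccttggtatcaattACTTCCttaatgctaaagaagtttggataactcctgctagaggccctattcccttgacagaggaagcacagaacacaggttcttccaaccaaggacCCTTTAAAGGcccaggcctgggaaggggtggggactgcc

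Of the 5 sequences, Itga4 and Itgam each held 1 GC box, and Lama2 held 1 ETS site and 1 CArG box. Among all 32817 promoters of this length the GC box was found in 32.7%, the TATA box in 12.4%, the ETS site in 19.7%, the AP-1 site in 6.75% and the CArG box in 1.47%. No match to the searched letters was found in the windows of Itga8 and Itgb6. G and C made up 64.0% of the bases before Itga4 and 47.2% of those before Lama2, and the median over all promoters was 52.4%.

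Among the laminin alpha chains, Lama2 was highest in fibroblasts, Lama3 was confined to endothelial cells, and Lama4 was highest in perineurial cells, non-myelinating glia and adipocytes. Lama2 (chromosome 10, 26980036 to 27619758) had the most UMIs of all 37 genes, 16844. In fibroblasts it stood at 35.3 (95% interval 33.6 to 36.9, 1771 UMIs) in the female and 31.4 (95% interval 29.9 to 33.1, 1537 UMIs) in the male library. Elsewhere it was 11.2 and 9.35 in perineurial cells, 11.6 and 9.11 in non-myelinating glia, 7.59 and 6.70 in barrier fibroblasts, 5.72 and 6.68 in mural cells, 6.96 and 5.49 in myelinating Schwann cells, 5.15 and 2.92 in cerebellar granule cells, 2.06 and 2.59 in leukocytes, 2.39 and 2.22 in endothelial cells, 1.78 and 2.08 in adipocytes, 2.0 and 0.846 in pituitary cells, and 0.772 and 0.709 in sensory neurons. Fibroblasts were higher than every other class in both libraries, and perineurial cells and non-myelinating glia changed places between them. The share of fibroblast nuclei with a Lama2 UMI was 85.3% (95% interval 80.0 to 89.7%) and 87.4% (95% interval 82.5 to 91.4%), or 79.0% and 81.8% after thinning each nucleus to 1000 UMIs. In leukocytes, which have no basement membrane, the share was 15.4% (95% interval 9.82 to 22.6%) and 21.7% (95% interval 15.2 to 29.6%) (10.4% and 16.7% thinned), at median depths of 1723 and 1886 UMIs against 1906 and 1976 in fibroblasts.

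Fibroblasts were not uniform in Lama2. The level was 51.0 and 38.2 in the cluster led by Abca6 and Col15a1 (127 female and 186 male nuclei) and 13 and 6.54 in the cluster led by Nox4 (98 and 45 nuclei). Lamc1, the gamma chain of most laminins, went the same way, with 7.99 and 5.72 against 1.54 and 1.15. The reverse order held for Itga11, a collagen receptor chain, with 0.238 and 0.104 against 1.35 and 0.961. Lama2 also differed between the 2 clusters of granule cells, at 0.817 and 1.39 in one and 7.30 and 6.54 in the other, which held 182 female but 3 male nuclei. Outside the classes compared, 27 female and 7 male astrocyte nuclei had 17.4 and 4.14.

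Lama3 (chromosome 18, 12333819 to 12583013), best known from epithelial basement membrane, was confined to endothelial cells here, although per length Lama4 was the higher chain there. It stood at 2.15 (95% interval 1.78 to 2.58, 117 UMIs) and 1.97 (95% interval 1.63 to 2.36, 119 UMIs) in endothelial cells. The other classes had 0.281 and 0.274 in mural cells, 0.117 and 0 in cerebellar granule cells, 0.107 and 0.0836 in sensory neurons, 0.0995 and 0 in fibroblasts, 0.0701 and 0.0312 in perineurial cells, 0 and 0.0976 in pituitary cells, 0.0278 and 0.0365 in barrier fibroblasts, 0 and 0.080 in adipocytes, 0 and 0.0212 in non-myelinating glia, 0.0192 and 0.00714 in myelinating Schwann cells, and 0 and 0 in leukocytes. Endothelial cells were 7.65-fold (2.55 to 37.6) and 7.18-fold (2.40 to 35.3) above mural cells, the next of the classes compared, which had 3 UMIs in each library. All 3 endothelial clusters carried it, at 2.35 and 1.98 in the cluster led by Zfp366, 2.54 and 2.11 in that led by Slco1a4 and 1.70 and 1.37 in that led by Pkhd1l1. Sympathetic neurons, of which 9 nuclei were female and 148 male and which are outside the classes compared, had 0.774 and 0.324. These levels are above those of mural cells in both libraries, so that the folds hold among the classes compared alone.

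Lama4 (chromosome 10, 38965515 to 39110188), the alpha chain of vessels, fat and nerve sheaths, had 6423 UMIs. It was 6.24 and 4.24 in perineurial cells, 4.43 and 4.64 in adipocytes, 5.06 and 3.52 in non-myelinating glia, 2.75 and 2.09 in barrier fibroblasts, 2.49 and 2.07 in fibroblasts, 2.57 and 1.92 in endothelial cells, 2.44 and 1.37 in mural cells, 1.63 and 0.974 in cerebellar granule cells, 1.85 and 1.30 in myelinating Schwann cells, 0.779 and 0.632 in sensory neurons, 0.917 and 0.228 in pituitary cells, and 0.289 and 0.654 in leukocytes. Perineurial cells led in the female library and adipocytes in the male library, so that these neighbours do not differ beyond the spread of the libraries, and leukocytes, pituitary cells and sensory neurons were at the low end of both. By these levels, Lama2 was above Lama4 in both libraries in all classes except adipocytes, endothelial cells and sensory neurons. Levels were also divided by gene span, per 100 kb, because the genes differ in length. Whether UMIs rise in proportion to span was not tested. Per 100 kb, Lama2 was the highest laminin alpha chain in fibroblasts in both libraries (5.51 and 4.91 against Lama4 at 1.72 and 1.43). The same held for leukocytes of the female library and mural cells of the male library. In all other classes Lama4 was the highest alpha chain on this scale.

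Lama1 and Lama5 were the scarce alpha chains, with 364 and 205 UMIs. Lama1, the chain of the first embryonic laminin, was highest in barrier fibroblasts, at 0.473 and 0.470, and was at most 0.17 (female non-myelinating glia) in the other classes of either library. Within barrier fibroblasts it sat in the cluster led by Slc7a11, with 2.30 and 1.59, and the other 4 clusters had 0.224 and 0.22 (led by Ranbp3l) or less. A cluster led by the satellite glia list, with 10 female and 36 male nuclei, had 3.09 and 0.843 (15 and 12 UMIs). The largest cluster led by that list had 0 and 0.0885, and the next had 0.120 and 0.0515. Lama5, a chain of mature vessel walls, was highest in endothelial cells, at 0.496 and 0.265, then in mural cells, at 0.375 and 0.183 from 4 and 2 UMIs.

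Per 100 kb of span, the beta chains divided glia and adipocytes from the sheath and vessel cells, which the undivided levels did only in part. Lamb1, the widely used beta chain, was highest in myelinating Schwann cells, at 3.04 and 2.19, with non-myelinating glia, at 2.0 and 1.35, and adipocytes, at 1.78 and 1.52, next in an order that changed between the libraries. Lamb2, the beta chain of synapses and mature vessels, was highest in perineurial cells in the female library (0.947 and 0.514) and in endothelial cells in the male library (0.367 and 0.546). Per 100 kb of span, Lamb1 was above Lamb2 in both glial classes and in adipocytes in both libraries, and Lamb2 was above Lamb1 in perineurial cells (Lamb2 at 8.77 and 4.76), barrier fibroblasts, fibroblasts, endothelial cells, mural cells and leukocytes in both. Without this division, Lamb2 stayed above Lamb1 in perineurial cells, barrier fibroblasts and endothelial cells in both libraries. In fibroblasts Lamb1 was then the higher chain, at 0.916 and 0.552 against Lamb2 at 0.398 and 0.286. Lamb1 was then also the higher chain in mural cells and leukocytes in both libraries, where few Lamb2 UMIs were counted. Lamb2 spans 10.8 kb and Lamb1 64.4 kb, so that the order in these classes rests on the division by span. Lamb3, a chain of epithelial laminin, had 269 UMIs and was highest in adipocytes, at 0.283 and 0.320, where 11 and 4 UMIs were counted.

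Of the gamma chains, Lamc1 (chromosome 1, 153218922 to 153332786, 5878 UMIs) was found in every class. It was 5.32 and 4.75 in fibroblasts, 3.86 and 3.13 in perineurial cells, 3.19 and 2.56 in mural cells, 2.90 and 2.29 in non-myelinating glia, 2.99 and 2.16 in barrier fibroblasts, 1.78 and 1.92 in adipocytes, 2.04 and 1.45 in myelinating Schwann cells, 1.47 and 1.47 in endothelial cells, 1.47 and 0.325 in cerebellar granule cells, 0.976 and 0.753 in leukocytes, 0.753 and 0.716 in pituitary cells, and 0.619 and 0.685 in sensory neurons. The 5 classes with the most were the same in both libraries, with fibroblasts first and perineurial cells second. Lamc3 had 278 UMIs and was highest in mural cells, at 2.34 and 1.01, then in barrier fibroblasts, at 0.528 and 0.379. In barrier fibroblasts it was counted in the clusters led by Slc7a11 (0.961 and 1.06) and Ranbp3l (1.05 and 0.633), and the other 3 clusters held 0.112 and 0.0245 (led by Col25a1) or less.

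**Figure D2:**
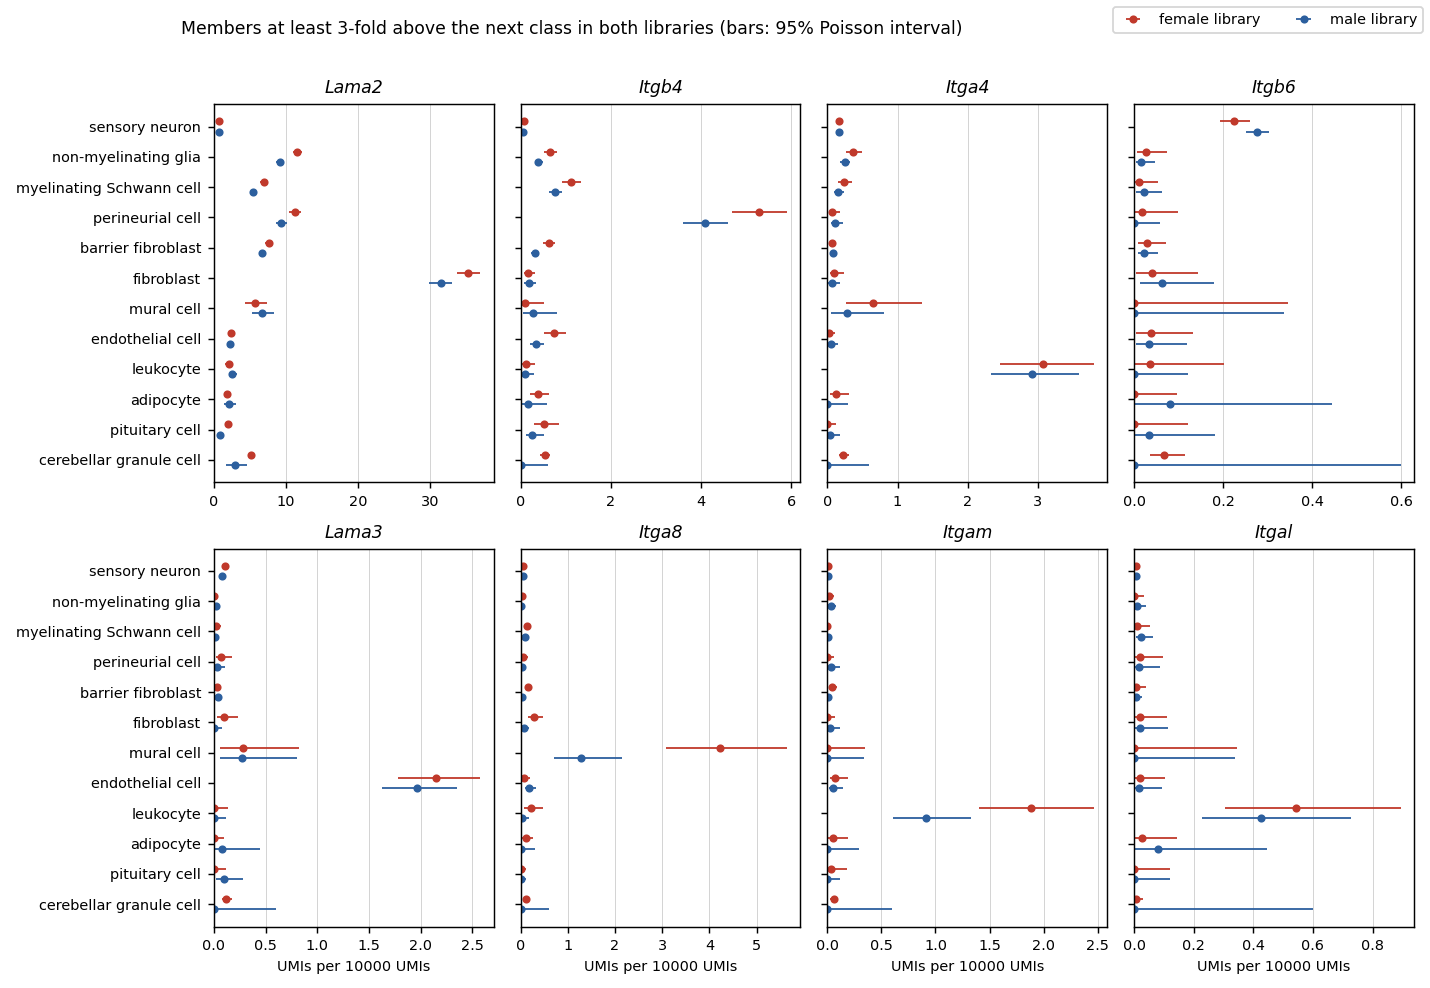
Level (UMIs per 10000 UMIs) of the 8 class-confined genes in each class, in the female (red) and male (blue) library, with bars for the 95% Poisson interval of each sum; each panel has its own axis from 0. The class with the highest level is the same in both libraries in every panel, and male mural cells lie below female mural cells in Itga8. For Itgb6 and Itgal in the male library, the next class had 1 UMI, and the interval of the fold over it includes 1.

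Among integrin alpha chains that pair with beta 1, Itga8 was confined to mural cells and Itga4 to leukocytes by the rule above. Itga6 was highest in perineurial and then in myelinating Schwann cells, and Itga1 in mural and then in endothelial cells. Neither Itga6 nor Itga1 passed the rule. Itga8 (chromosome 2, 12106632 to 12301922), a receptor chain for nephronectin and other RGD ligands, had 347 UMIs. It stood at 4.22 (95% interval 3.08 to 5.64, 45 UMIs) and 1.28 (95% interval 0.70 to 2.15, 14 UMIs) in mural cells. A UMI of it was found in 31.8% (95% interval 18.6 to 47.6%) and 12.8% (95% interval 4.83 to 25.7%) of mural nuclei. In the other classes it was 0.279 and 0.0614 in fibroblasts, 0.0735 and 0.182 in endothelial cells, 0.217 and 0.0327 in leukocytes, 0.125 and 0.100 in myelinating Schwann cells, 0.107 and 0 in cerebellar granule cells, 0.160 and 0.0319 in barrier fibroblasts, 0.103 and 0 in adipocytes, 0.0473 and 0.0489 in sensory neurons, 0.0526 and 0.0312 in perineurial cells, 0.0255 and 0.0159 in non-myelinating glia, and 0 and 0 in pituitary cells. Mural cells were 15.1-fold (8.16 to 29.9) above fibroblasts in the female library and 7.03-fold (2.97 to 17.1) above endothelial cells in the male library.

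Itga4 (chromosome 2, 79255426 to 79333123), the chain by which leukocytes bind Vcam1 and fibronectin, had 890 UMIs and stood at 3.07 (95% interval 2.46 to 3.80, 85 UMIs) and 2.91 (95% interval 2.34 to 3.58, 89 UMIs) in leukocytes. The other classes had 0.656 and 0.274 in mural cells, 0.365 and 0.244 in non-myelinating glia, 0.225 and 0 in cerebellar granule cells, 0.231 and 0.157 in myelinating Schwann cells, 0.160 and 0.169 in sensory neurons, 0.129 and 0 in adipocytes, 0.0701 and 0.109 in perineurial cells, 0.0995 and 0.0614 in fibroblasts, 0.0695 and 0.0775 in barrier fibroblasts, 0.0184 and 0.0496 in endothelial cells, and 0 and 0.0325 in pituitary cells. Leukocytes were 4.68-fold (2.18 to 12) and 10.6-fold (3.52 to 52.5) above mural cells, where 7 and 3 UMIs were counted. Both leukocyte clusters carried it, at 3.26 and 2.84 in the cluster led by Ccr2 and 2.79 and 3.34 in that led by F13a1. Itga4 was also counted in the cluster of non-myelinating Schwann cells, at 0.901 and 0.530.

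Itga6 (chromosome 2, 71745616 to 71858416), a chain of laminin receptors, had 4585 UMIs, the most of any alpha chain. It was 4.72 and 5.41 in perineurial cells, 3.76 and 3.35 in myelinating Schwann cells, 2.37 and 2.27 in endothelial cells, 1.70 and 1.77 in leukocytes, 1.70 and 1.32 in non-myelinating glia, 1.01 and 0.812 in cerebellar granule cells, 0.979 and 0.80 in adipocytes, 1.12 and 0.640 in mural cells, 0.459 and 0.455 in pituitary cells, 0.375 and 0.506 in barrier fibroblasts, 0.358 and 0.511 in fibroblasts, and 0.345 and 0.349 in sensory neurons. The first 3 classes, perineurial cells, myelinating Schwann cells and endothelial cells, came in the same order in both libraries. Among myelinating Schwann cells it was 5.10 and 5.16 in the cluster led by Sptbn5 and Pmp2, 4.19 and 3.31 in the cluster led by Gm12068 and 2.90 and 2.71 in that led by Arhgap19. Sympathetic neurons had 1.77 and 2.67, from 32 and 536 UMIs, and were higher than sensory neurons in both libraries.

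Itga1 (chromosome 13, 114953096 to 115101964), a chain of collagen and laminin receptors, had 2777 UMIs over all nuclei. It was 6.75 and 4.39 in mural cells, 2.44 and 2.86 in endothelial cells, 2.11 and 2.0 in adipocytes, 1.67 and 1.12 in non-myelinating glia, 1.30 and 0.997 in perineurial cells, 1.33 and 0.935 in barrier fibroblasts, 1.08 and 0.655 in fibroblasts, 0.751 and 0 in cerebellar granule cells, 0.524 and 0.163 in pituitary cells, 0.362 and 0.229 in leukocytes, 0.192 and 0.257 in myelinating Schwann cells, and 0.154 and 0.152 in sensory neurons. Mural and then endothelial cells led in both libraries, and sensory neurons were lowest in the female library and above granule cells alone, which had no UMI, in the male library. In sympathetic neurons it was 2.43 and 1.79. Its neighbour on chromosome 13, Itga2 (chromosome 13, 114833081 to 114932100, 2642 UMIs), is also a collagen receptor chain and had another order. Itga2 was 1.20 and 0.826 in non-myelinating glia, 0.806 and 0.723 in sensory neurons, 0.521 and 0.325 in cerebellar granule cells, 0.253 and 0.524 in leukocytes, 0.276 and 0.496 in endothelial cells, 0.25 and 0.457 in myelinating Schwann cells, 0.398 and 0.266 in fibroblasts, 0.469 and 0.183 in mural cells, 0.335 and 0.160 in adipocytes, 0.175 and 0.203 in perineurial cells, 0.125 and 0.164 in barrier fibroblasts, and 0.197 and 0.0976 in pituitary cells. Non-myelinating glia and sensory neurons were the first and second class for Itga2 in both libraries.

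The other alpha chains of this kind were Itgav, Itga3, Itga5, Itga7, Itga9, Itga10 and Itga11, with 274 UMIs (Itga5) to 2593 UMIs (Itgav). Itga10, a collagen receptor chain, was highest in barrier fibroblasts, at 0.702 and 0.616. Itga11 was highest in fibroblasts, at 0.697 and 0.286, with barrier fibroblasts close in the male library (0.278 and 0.255). Itga5, the main fibronectin receptor chain, and Itga3, a laminin receptor chain, were both highest in endothelial cells, Itga5 at 0.551 and 0.579 and Itga3 at 0.459 and 0.397. The lead over the next class was 1.27-fold (0.632 to 2.72) and 2.83-fold (1.37 to 6.41) for Itga5. For Itga3 it was 1.23-fold (0.423 to 4.84) and 1.36-fold (0.609 to 3.32). All of these intervals except that of Itga5 in the male library include 1. Itga7, the laminin receptor chain known from muscle, was highest in mural cells (1.41 and 1.01) and close to that in non-myelinating glia (1.05 and 0.996). Itga9, a receptor chain for tenascin and other ligands, led in endothelial cells in the female library (2.28 and 0.91) and in perineurial cells in the male library (2.02 and 1.15). Itgav, the common RGD receptor chain, had no clear first class, with 1.98 and 1.27 in non-myelinating glia, 1.63 and 1.36 in myelinating Schwann cells and 2.06 and 1.01 in leukocytes.

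The alpha chains that do not pair with beta 1 are those of leukocytes and platelets. Itgam, the alpha chain of the complement receptor of myeloid cells, had 139 UMIs and stood at 1.88 (95% interval 1.40 to 2.47, 52 UMIs) and 0.916 (95% interval 0.609 to 1.32, 28 UMIs) in leukocytes. It was 0.0735 and 0.0496 in endothelial cells, 0.0562 and 0 in cerebellar granule cells, 0.0515 and 0 in adipocytes, 0.0170 and 0.0371 in non-myelinating glia, 0.0417 and 0.00912 in barrier fibroblasts, 0 and 0.0312 in perineurial cells, 0.0328 and 0 in pituitary cells, 0 and 0.0205 in fibroblasts, 0.00395 and 0.00619 in sensory neurons, 0 and 0.00714 in myelinating Schwann cells, and 0 and 0 in mural cells. Itgal, which pairs with beta 2 to bind Icam proteins, had 72 UMIs, with 0.542 and 0.425 in leukocytes and 1 UMI in adipocytes, the next class, in each library, so that the folds over it, 21.1-fold (3.24 to 887) and 5.32-fold (0.799 to 226), rest on single molecules. Itgal lay in the Ccr2 cluster (0.829 and 0.499), and the F13a1 cluster held 1 UMI.

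Itga2b, the platelet chain, had 185 UMIs. The folds of myelinating Schwann cells over the next class were 1.46-fold (0.482 to 4.60) and 1.60-fold (0.504 to 6.69), and both intervals include 1. Itga2b was thus highest in myelinating Schwann cells in both libraries, but only from 9 and 14 UMIs. It was 0.0866 and 0.100 in myelinating Schwann cells, 0.0526 and 0.0623 in perineurial cells, 0.0595 and 0.0424 in non-myelinating glia, 0.0551 and 0.0331 in endothelial cells, 0.0486 and 0.0365 in barrier fibroblasts, 0.0289 and 0.0384 in sensory neurons, 0.0204 and 0 in cerebellar granule cells, 0.0258 and 0 in adipocytes, 0.0362 and 0 in leukocytes, 0 and 0.0325 in pituitary cells, 0.0199 and 0 in fibroblasts, and 0 and 0 in mural cells. Itgae, the chain of intraepithelial lymphocytes, had 82 UMIs and was 0.0723 and 0.0327 in leukocytes, 0.0577 and 0.0357 in myelinating Schwann cells, 0.0515 and 0 in adipocytes, 0.0701 and 0 in perineurial cells, 0.0486 and 0.00456 in barrier fibroblasts, 0.0153 and 0 in cerebellar granule cells, 0.00921 and 0.0111 in sensory neurons, 0.00849 and 0.0106 in non-myelinating glia, 0 and 0.0165 in endothelial cells, 0 and 0 in fibroblasts, 0 and 0 in mural cells, and 0 and 0 in pituitary cells. At these counts no order of classes could be given for Itgae, in which leukocytes led in the female library with 2 UMIs. Itgax had 11 UMIs, 7 of them in leukocytes, and Itgad had 6.

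The beta chains ran from Itgb1, present in every class, to Itgb4 and Itgb6, each confined to 1. Itgb1 (chromosome 8, 128685654 to 128733200), the partner of most laminin and collagen receptor chains, had 7209 UMIs. It was 3.0 and 4.21 in mural cells, 2.72 and 2.25 in endothelial cells, 2.19 and 2.62 in perineurial cells, 2.78 and 2.03 in leukocytes, 2.27 and 2.27 in fibroblasts, 2.22 and 2.30 in myelinating Schwann cells, 2.02 and 2.18 in barrier fibroblasts, 2.16 and 1.46 in pituitary cells, 1.52 and 1.94 in non-myelinating glia, 1.42 and 1.44 in adipocytes, 1.27 and 1.29 in sensory neurons, and 1.20 and 1.79 in cerebellar granule cells. Mural cells were highest in both libraries, and no class was without it. The female lead was 1.08-fold (0.690 to 1.65) over leukocytes, an interval that includes 1. In the male library the lead was 1.61-fold (1.13 to 2.24) over perineurial cells. Per 100 kb of span Itgb1 was the highest beta chain in all classes except perineurial cells and non-myelinating glia in both libraries and myelinating Schwann cells in the female library.

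Itgb4 (chromosome 11, 115974709 to 116008412), which pairs with Itga6 alone and binds laminin, had 1661 UMIs and stood at 5.28 (95% interval 4.70 to 5.91, 301 UMIs) and 4.08 (95% interval 3.60 to 4.61, 262 UMIs) in perineurial cells. The other classes had 1.12 and 0.764 in myelinating Schwann cells, 0.735 and 0.331 in endothelial cells, 0.531 and 0 in cerebellar granule cells, 0.646 and 0.392 in non-myelinating glia, 0.625 and 0.310 in barrier fibroblasts, 0.524 and 0.260 in pituitary cells, 0.386 and 0.160 in adipocytes, 0.0937 and 0.274 in mural cells, 0.159 and 0.184 in fibroblasts, 0.108 and 0.0982 in leukocytes, and 0.0802 and 0.0607 in sensory neurons. Perineurial cells were 4.73-fold (3.81 to 5.91) and 5.34-fold (4.25 to 6.76) above myelinating Schwann cells, which came next in both libraries. Perineurial and myelinating Schwann cells were thus the first 2 classes for both Itgb4 and Itga6. Per 100 kb of span, Itgb4 was at 15.7 and 12.1 in perineurial cells, above Itgb1 at 4.61 and 5.51. In the female granule cell cluster with few male nuclei it was 0.718, from 94 UMIs, and in the other granule cell cluster 0.154.

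Itgb8 (chromosome 12, 119158022 to 119238802), which pairs with Itgav to release active TGF-beta, had 4992 UMIs. It was 5.39 and 3.81 in non-myelinating glia, 4.17 and 3.20 in myelinating Schwann cells, 1.56 and 1.15 in barrier fibroblasts, 1.49 and 1.10 in fibroblasts, 1.44 and 1.11 in perineurial cells, 1.11 and 0.812 in cerebellar granule cells, 0.827 and 0.761 in endothelial cells, 0.562 and 0.914 in mural cells, 0.884 and 0.520 in pituitary cells, 0.592 and 0.40 in adipocytes, 0.542 and 0.524 in leukocytes, and 0.317 and 0.386 in sensory neurons. Both glial classes were above all other classes in both libraries. Itgb3, another partner of Itgav, was also highest in non-myelinating glia, at 0.798 and 0.630, and Itgb5 was highest in leukocytes in the female library (2.06 and 1.24), with the 25 male granule cell nuclei at 1.30 from 8 UMIs. Itgb7, the partner of Itga4 and Itgae in lymphocytes, had 95 UMIs and was highest in leukocytes, at 0.362 and 0.131, all of them in the Ccr2 cluster (0.592 and 0.153) and none in the F13a1 cluster. Itgb2, the partner of Itgal, Itgam, Itgax and Itgad, had 40 UMIs, 14 of them in leukocytes.

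Itgb6 (chromosome 2, 60598292 to 60722643), known from epithelia, where it pairs with Itgav, was the 1 member confined to sensory neurons. It had 710 UMIs and stood at 0.225 (95% interval 0.192 to 0.261, 171 UMIs) and 0.277 (95% interval 0.252 to 0.304, 447 UMIs). The other classes had 0.0664 and 0 in cerebellar granule cells, 0.0398 and 0.0614 in fibroblasts, 0.0367 and 0.0331 in endothelial cells, 0.0278 and 0.0228 in barrier fibroblasts, 0.0255 and 0.0159 in non-myelinating glia, 0 and 0.080 in adipocytes, 0.0362 and 0 in leukocytes, 0.00962 and 0.0214 in myelinating Schwann cells, 0 and 0.0325 in pituitary cells, 0.0175 and 0 in perineurial cells, and 0 and 0 in mural cells. The next class was granule cells with 13 UMIs in the female library and adipocytes with 1 UMI in the male library, where the fold was 3.46-fold (0.618 to 137). Sensory neurons are also the deepest nuclei, with medians of 7151 and 9137 UMIs, and 15% (95% interval 12.2 to 18.1%) and 15.4% (95% interval 13.5 to 17.5%) of them had an Itgb6 UMI. After thinning to 1000 UMIs the share was 3.47% and 1.58%, against 0.449% and 0.128% in barrier fibroblasts. Skeletal muscle, with 16 female and 3 male nuclei and so outside the classes compared, had a higher level than neurons, 3.20 and 3.14, from 14 and 2 UMIs.

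Within sensory neurons, integrin chains were divided between clusters, and these genes too were picked after their values were seen. Hs3st4 led 3 clusters, in which Itga2 was 2.57 and 2.13 in the largest by UMIs, 1.62 and 1.48 in the largest by nuclei and 1.27 and 1.24 in the third, and it was 0.80 and 0.556 in the cluster led by Gm31698. The remaining 9 sensory neuron clusters had 0.0507 to 0.272 over both libraries. The same first 2 clusters had the most Itga9, at 1.83 and 1.36 in the first and 1.89 and 0.888 in the second. They also had the most Itgb6, at 0.446 and 0.812 in the first and 0.864 and 0.364 in the second. In the third, Itgb6 was 0.0398 and 0.343, with 1 UMI in 17 female nuclei. The cluster led by Gfra3 had 0 Itgb6 UMIs in 161 nuclei.

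Itga6 was mostly high in other neurons than Itga2, and the third Hs3st4 cluster was high in both. It was 1.49 and 0.835 in the cluster led by Trpm8, the cold receptor channel, 0.731 and 0.882 in that led by Cdh9, 0.664 and 0.866 in that led by Il31ra and 0.677 and 0.745 in the third Hs3st4 cluster. The first 3 of these clusters were among 5 led by the jugular neuron list, the other 2 of which had 0.305 and 0.348 (led by Grik1) and 0.240 and 0.228 (led by Gfra3). In each of the first 3 Itga2 was 0.203 or less over both libraries. In the other 9 sensory neuron clusters Itga6 lay between 0.0841 and 0.378. Itga3 varied less, from 0.125 to 0.323 over the 13 clusters.

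**Figure D3:**
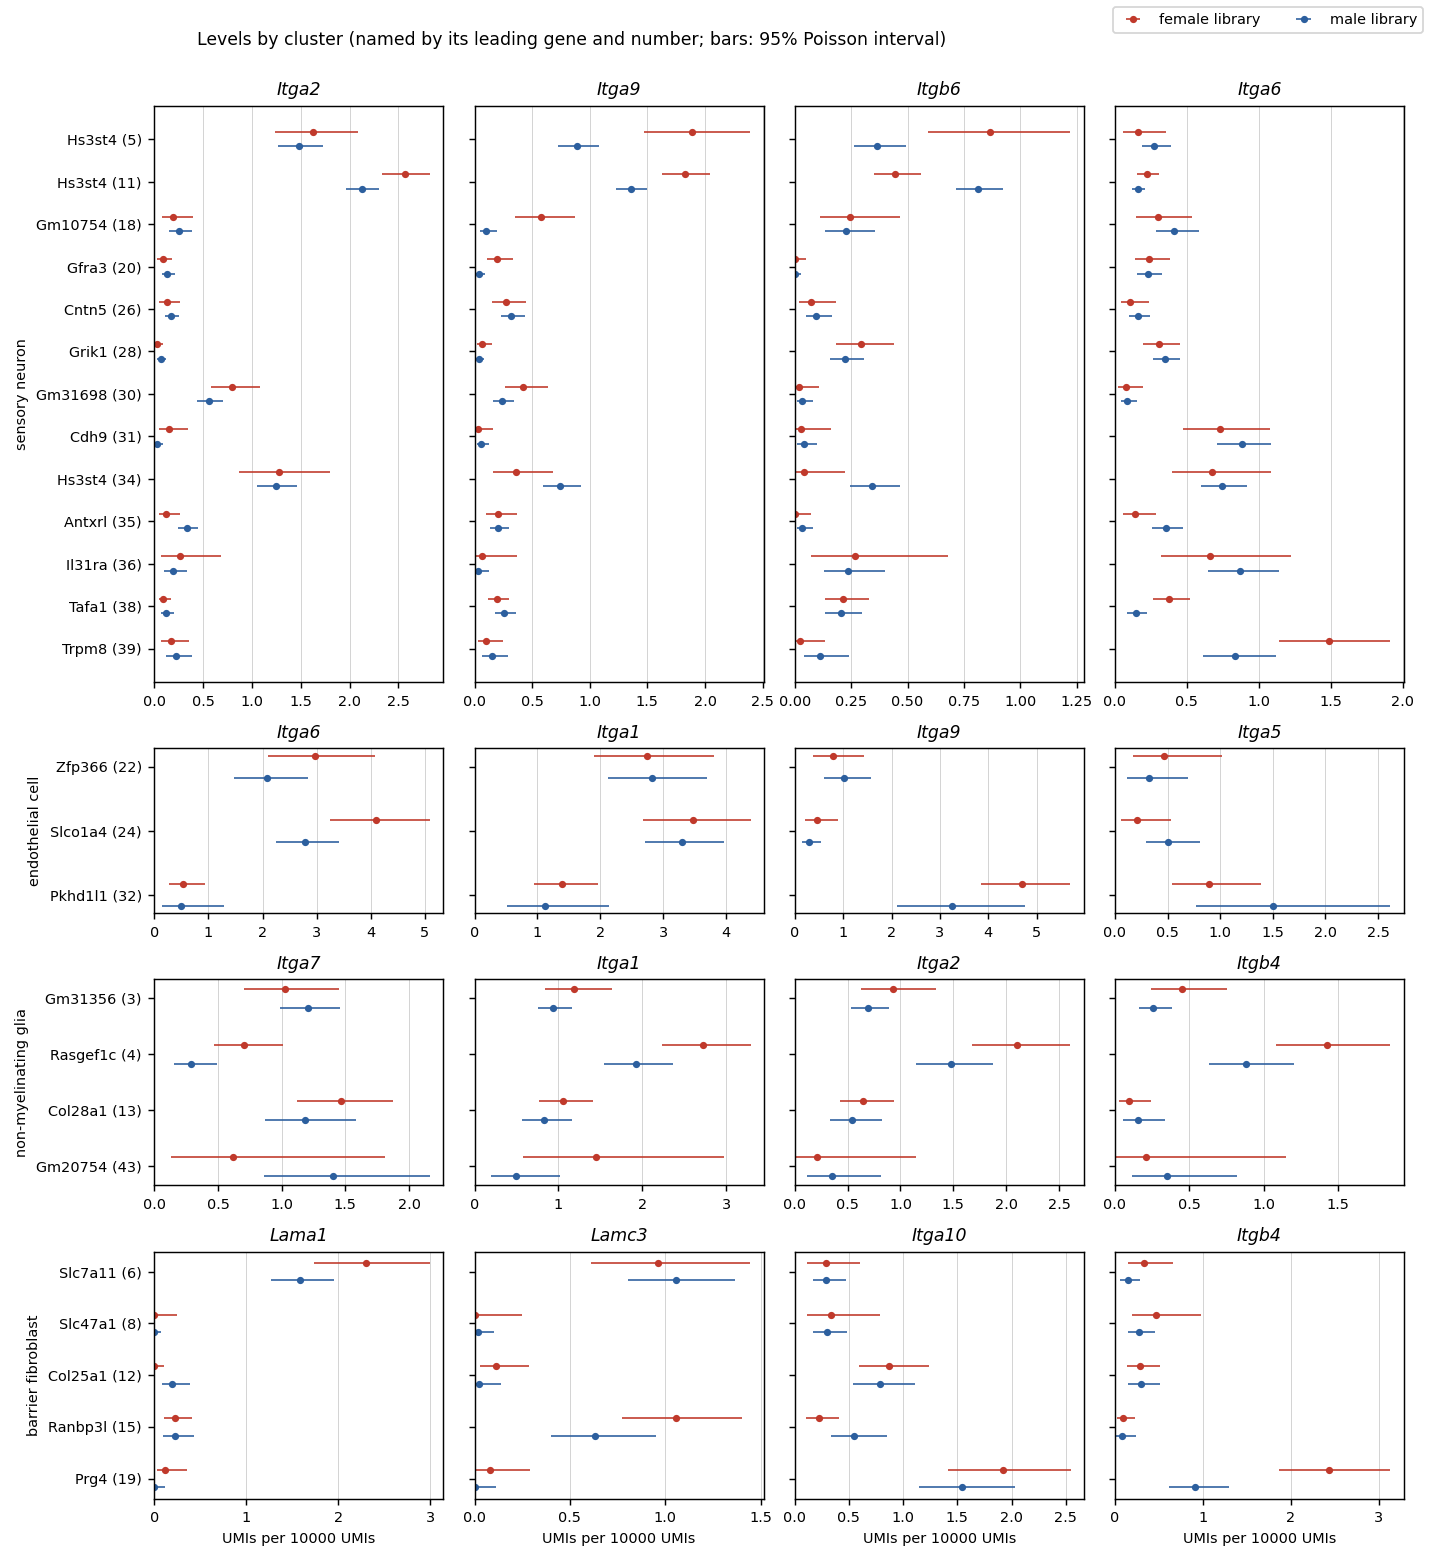
Levels (UMIs per 10000 UMIs) of selected genes in the clusters inside 4 classes, in the female (red) and male (blue) library, with 95% Poisson intervals; clusters carry the name of their leading gene and a number, and each panel has its own axis from 0. Itga2 is highest in the 3 Hs3st4 clusters of neurons, Itga9 in the Pkhd1l1 cluster of endothelial cells, and Lama1 in the Slc7a11 cluster of barrier fibroblasts, in both libraries. The genes were chosen for the plot after their values were seen.

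Clusters inside the vessel, glial and fibroblast classes also differed in their integrins. These genes were picked after their values were seen, and their values are a description. Itga6 was 4.09 and 2.79 in the endothelial cluster led by Slco1a4, 2.97 and 2.08 in that led by Zfp366 and 0.538 and 0.499 in that led by Pkhd1l1. In the same clusters Itga1 was 3.47 and 3.30, then 2.74 and 2.83, then 1.39 and 1.12. The Pkhd1l1 cluster was thus lowest in both chains in both libraries. It was highest in Itga9, with 4.70 and 3.25, against 0.466 and 0.297 in the Slco1a4 cluster and 0.782 and 1.01 in the Zfp366 cluster. It was also highest in Itga5, with 0.896 and 1.5, against 0.207 and 0.505 in the Slco1a4 cluster and 0.469 and 0.320 in the Zfp366 cluster. The Slco1a4 cluster had a mean log2 fold of 1.32 over other clusters for the mural marker list. That list summed to 2.72 and 8.79 in all endothelial cells. The part of mural RNA in the endothelial levels of Itga1 and Itga8, both highest in mural cells, was not tested.

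Among non-myelinating glia, the cluster led by the non-myelinating Schwann cell list stood apart from the 2 larger ones led by the satellite glia list. Itga7 was lower in it, at 0.701 and 0.287, than in the larger satellite cluster, at 1.03 and 1.21, and the smaller one, at 1.46 and 1.18. Itga1 was higher in it, at 2.73 and 1.92, against 1.19 and 0.940 in the larger and 1.05 and 0.824 in the smaller satellite cluster. Itga2 was 2.10 and 1.48 in it, against 0.929 and 0.697 in the larger and 0.647 and 0.541 in the smaller. Itgb4 went the same way as Itga1 and Itga2, with 1.43 and 0.883 against 0.449 and 0.254 in the larger and 0.0959 and 0.154 in the smaller. In barrier fibroblasts the cluster led by Prg4 had the most Itga10, 1.92 and 1.54, and the most Itgb4, 2.44 and 0.907. The other 4 barrier clusters had 0.292 to 0.825 of Itga10 and 0.0865 to 0.319 of Itgb4 over both libraries.

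The other genes of basement membrane and adhesion, a list of 82 genes of which 76 had at least 50 UMIs, held 6 that were confined to a class by the same rule, beside the 5.71% of all genes. Unlike the laminin and integrin genes, the genes of this list were not left out of the clustering, so that they could help to form the classes. Col15a1, a collagen at the outer face of the basement membrane, stood at 6.19 and 5.58 in fibroblasts, the highest class of Lama2 too. Fibroblasts held 64.0% and 72.1% of the Col15a1 level summed over the classes, against 38.1% and 39.2% for Lama2. Col15a1 is among the leading genes of a fibroblast cluster and Lama2 was left out of the clustering, so that these shares are not like for like. Spp1, an integrin ligand also named osteopontin, stood at 2.5 and 3.52 in myelinating Schwann cells. Vcam1, the ligand of Itga4 with Itgb1, was highest in endothelial cells, at 1.62 and 2.90, and Itga4 was highest in leukocytes. Fermt3, the kindlin that activates integrins in blood cells, was a leukocyte gene, at 1.27 and 0.720, and Mfge8, a ligand of Itgav, a mural gene, at 1.03 and 0.914. The sixth was Icam2, an endothelial ligand of Itgal, which the rule for named genes does not cover.

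By list, 1 of 16 other basement membrane components, 4 of 15 other integrin ligands, 0 of 20 other laminin receptors and 1 of 25 intracellular integrin partners were confined to a class. Dag1, the dystroglycan that binds laminin alpha 2 chains, was highest in myelinating Schwann cells, at 5.54 and 4.77. Nid1, which links laminin to collagen IV, was highest in fibroblasts, at 2.33 and 2.39, with perineurial cells next, at 2.12 and 1.75, the same first 2 classes as for Lamc1. Col4a1 was highest in mural cells (2.34 and 2.47) and then in endothelial cells (2.15 and 1.52), as was Itga1. Fn1, the fibronectin gene, was highest in barrier fibroblasts, at 4.77 and 4.0, and then in fibroblasts, at 2.81 and 1.53. It was not left out of the clustering either and is among the leading genes of the barrier fibroblast cluster led by Prg4.

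Between the libraries, the laminin and integrin genes were more often lower in the male one. Of 213 pairs of a gene and a class with at least 20 UMIs, 155 had a log2 ratio of male over female below 0, and the median was -0.34. These ratios have 0.5 UMIs added on each side, which matters where a class has few male UMIs. Over all 109923 pairs of any gene and a class, 49.3% were below 0, and the median was 0.011. The 95% counting interval lay below 0 for 62 of the 213 pairs and above 0 for 6. Pairs without a UMI in 1 library have no interval and are in neither count. The same counts were not made over all genes, so that no background share stands beside them. By these ratios, 6 pairs were at least 2-fold higher in the male library, where 7.4% of all pairs were, among them Lama1 in granule cells with 1 male UMI, whose levels were 0.117 and 0.162. In the other direction, 24 were at least 2-fold higher in the female library, where 4.65% of all pairs were. Of these 24, 7 were in granule cells and 4 in pituitary cells. Without these classes, a choice made after the data were seen, 4 of 182 pairs were at least 2-fold higher in the male and 13 in the female library. Of all pairs, 9.18% were then past 2-fold in either direction. The median of the genes was lowest in pituitary cells (-0.97), granule cells (-0.59) and mural cells (-0.54), was between -0.50 and -0.33 in both glial classes, fibroblasts, barrier fibroblasts and perineurial cells, and was nearer to 0 in leukocytes (-0.21), endothelial cells (-0.12), sensory neurons (-0.08) and adipocytes (-0.004).

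Other values also differed between the libraries. The 18 genes of the neuron marker list were summed in the 10 classes of cells other than neurons. The sums were 23.8 to 49.0 UMIs per 10000 in the female and 50.6 to 84.8 in the male library. They were higher in the male library in all 10, and none of the 18 genes was at 0 in any of them. Marker lists of other cell types went either way. In barrier fibroblasts the sympathetic neuron list summed to 0.716 and 4.62, the adipocyte list to 3.79 and 1.76 and the pituitary list to 1.99 and 0.575. The adipocyte and pituitary lists were higher in the female library in every class compared. Over all genes, the median log2 ratio was 0.28 for genes with a span under 20 kb, -0.04 from 20 to 100 kb and -0.20 at 100 kb or more, and for the laminin and integrin genes it was -0.54, -0.31 and -0.33 over 14, 106 and 93 pairs. Without granule and pituitary cells, a choice made after the data were seen, 129 of 182 pairs had a ratio below 0 and the median was -0.30. The part of neuronal RNA outside neurons and of gene span in the difference was not tested, and sex and library cannot be told apart.

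The pairs whose interval lay wholly past 1.5-fold were 6, a count that was not made over all genes. Itga8 in mural cells, at 4.22 and 1.28, had a log2 ratio of -1.69 (-2.70 to -0.83). Itga9 in endothelial cells, at 2.28 and 0.91, had -1.32 (-1.81 to -0.85), and the Pkhd1l1 cluster, in which Itga9 is highest, held 87 of 212 female but 24 of 189 male endothelial nuclei. Within that cluster Itga9 was 4.70 and 3.25, within the Slco1a4 cluster 0.466 and 0.297 and within the Zfp366 cluster 0.782 and 1.01, so that the endothelial difference did not appear in each cluster.

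Itga8 in barrier fibroblasts (0.160 and 0.0319) had a log2 ratio of -2.26 (-3.79 to -1.06), which rested on 23 female and 7 male UMIs, and its level was higher in the female library in each of the 5 clusters, 3 of which had no male UMI. Itga7 in barrier fibroblasts (0.0486 and 0.182) had 1.83 (0.73 to 3.31) and was the 1 pair of the 6 that was higher in the male library, with 7 female and 40 male UMIs, and 18 of the 40 lay in the Slc7a11 cluster, which had no female UMI of Itga7. In pituitary cells, Itgav, at 0.852 and 0.0651, had -3.42 (-6.83 to -1.71), and Lama4, at 0.917 and 0.228, had -1.94 (-3.45 to -0.78). Of the nuclei, 33 of the 94 male but 2 of the 67 female pituitary nuclei were of a cluster led by Pomc. In the other pituitary cluster, with 65 female and 61 male nuclei, Itgav was 0.891 and 0.0538 and Lama4 0.788 and 0.269.

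The pairs with the most UMIs in each class were closer to equal. Lama2 had log2 ratios of -0.17 (-0.26 to -0.07) in fibroblasts, -0.18 (-0.29 to -0.07) in barrier fibroblasts, -0.26 (-0.42 to -0.10) in perineurial cells, -0.35 (-0.45 to -0.24) in non-myelinating glia and -0.34 (-0.49 to -0.19) in myelinating Schwann cells, and 0.22 (-0.29 to 0.74) in mural cells. The first 5 intervals lie below 0 and the mural interval includes it. In granule cells, with 18 male UMIs, it was -0.78 (-1.58 to -0.15). Itgb1 had 0.01 (-0.10 to 0.13) in sensory neurons and -0.56 (-1.14 to 0.01) in pituitary cells, Itga1 0.23 (-0.11 to 0.57) in endothelial cells, Lama4 0.08 (-0.39 to 0.50) in adipocytes and Itga4 -0.08 (-0.52 to 0.37) in leukocytes. These 5 intervals include 0, and at these counts no difference could be detected.

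**Figure D4:**
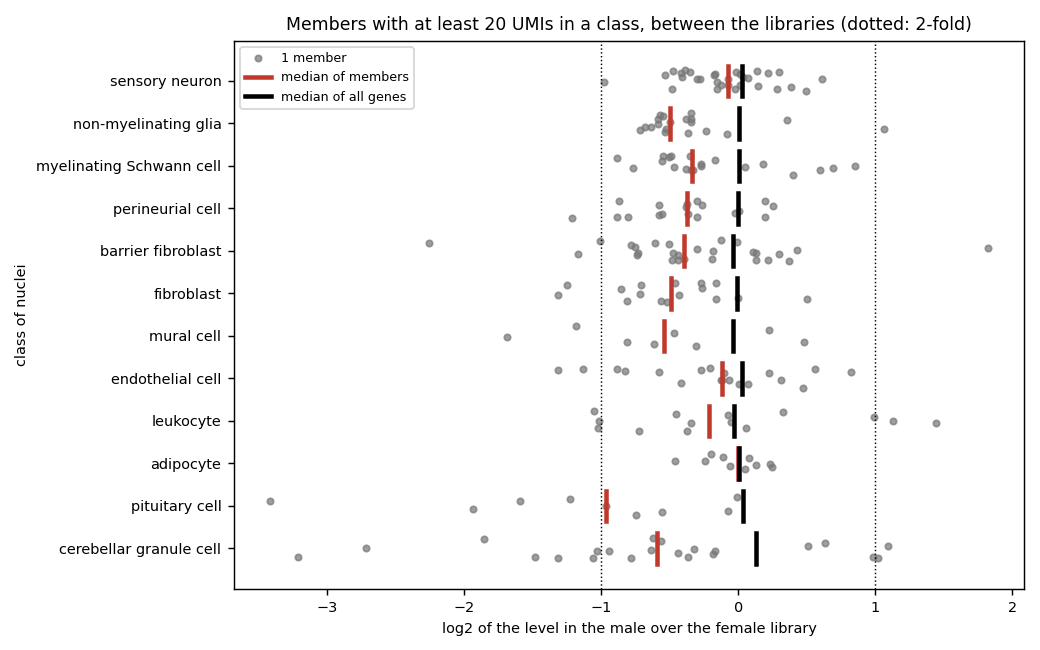
Log2 of the level in the male over the female library for each laminin or integrin gene with at least 20 UMIs in a class (grey points, spread vertically for display), by class, with the median of these genes in red, the median of all genes in black and 2-fold as dotted lines. The red median lies left of the black one in all 12 classes, by least in adipocytes and sensory neurons.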

How the data were processed

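Single-nucleus RNA sequencing of pooled vagal ganglia gave 1 library of each sex. The deposited UMI counts were made by the authors with Cell Ranger 7.1.0 on mm10 with an added transgene sequence and introns included. The authors kept barcodes by debris score, gene number and UMI number, which also served them to remove possible doublets, and joined the libraries with the deeper one subsampled, so that library totals are not the sequenced depth. The division of reads between overlapping genes and the annotation release were not given in the sources used here. No further nuclei were removed and no doublet caller was run. Barcodes ending in 1 were taken as female and those in 2 as male, since their numbers, 3791 and 4923, are those given for the sexes. Nuclei had 980 to 124136 UMIs in the female and 1004 to 121725 UMIs in the male library, with medians of 2381 and 2658.

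The laminin and integrin genes and sex-linked genes were left out of the clustering (scanpy 1.11.5, igraph 0.11.9), which used 3000 variable genes, 30 principal components, 15 neighbours and Leiden resolution 2. Of the 49 clusters, those led by 1 marker list (at least 3 markers) took its name. Clusters with a further strong list, or with more markers of another list among their 10 leading genes, stayed unnamed. These limits were set after the clusters were seen. The largest unnamed cluster, with 191 nuclei, was led by the nodose neuron list and is not counted among the sensory neurons. Classes with at least 20 nuclei in each library were compared. Satellite glia and non-myelinating Schwann cells were joined into 1 class. UMIs were summed by class and library. Levels have exact Poisson 95% intervals, folds conditional exact 95% intervals, and shares Clopper-Pearson 95% intervals. Ratios between the libraries had 0.5 UMIs added on each side. Thinning to 1000 UMIs left out 19 female nuclei. Members, gene lists and rules were chosen with earlier results of these data known.

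Values are given in full for genes with at least 200 UMIs that were 3-fold above the next class in both libraries, and for the 3 genes with the most UMIs among laminin chains, alpha chains that pair with beta 1, other alpha chains and beta chains. Other genes are given by their highest class, and remarks on clusters, sympathetic neurons and skeletal muscle were picked after their values were seen. Of the list of other genes, the 5 class-confined ones with the most UMIs and Dag1, Nid1, Col4a1 and Fn1 are named. Between the libraries, pairs past 2-fold whose interval excludes 1.5-fold are named, with pairs of many UMIs for contrast. Alternatives were other UMI minimums and folds, TMM scaling (edgeR 4.0.16), means over nuclei, deeper nuclei, other clusterings and single libraries. The scripts were tested on simulated data. The values of 1 gene are not reported here, though it is among the genes counted.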

Additional observations from a re-analysis of the deposited data

How the results depend on the processing

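The count of 8 class-confined laminin and integrin genes of 34 (5.71% of all genes) became 4 with a 5-fold limit (2.88% of all genes) and 13 with the female library alone (10.3%), and lay between 6 and 12 under the other alternatives. The 8 genes were all among the 9 found when genes were scaled within each library. They were also the 8 found with the laminin and integrin genes kept in the clustering. With TMM scaling 7 were among the 8 found, and Lama2 was not. With clusters on 10 components of all genes 5 were among the 6 found, as were 5 among the 6 with nuclei of over 2000 UMIs. With those deeper nuclei the log2 ratio of Lama2 in fibroblasts over perineurial cells went from 1.71 to 1.58. The 6 class-confined genes of the other adhesion list became 3 of 69 with at least 200 UMIs, beside 4.65% of all genes, and 2 of 76 with a 5-fold limit, beside 2.88%, so that these shares are near the background. The 30 of 213 pairs past 2-fold in either direction (12.04% of all pairs) became 14 of 148 with at least 50 UMIs (8.14%), 68 of 213 with a 1.5-fold limit (31.7%) and 17 of 182 without granule and pituitary cells (9.18%), shares near the background, the last an alternative chosen after seeing the data. The median log2 ratio of male over female in the laminin and integrin genes was -0.35 to -0.30 under all of these alternatives.

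Of 144 ratios of a gene's highest class to the next under alternatives, 115 moved by less than their interval, 18 moved by more and 11 changed sign. With clusters on 10 components only some of the 34 genes had a ratio. Of these ratios, 3 moved by less than their interval, 3 moved by more and 3 changed sign, so that most did not hold there. Of the 18 that moved by more under any alternative, 7 moved by over 1.5 times. The log2 ratio of Lama1 in barrier fibroblasts over non-myelinating glia went from 1.78 to 1.09 with nuclei of over 2000 UMIs, 2.62 as a mean over nuclei and 3.60 with clusters on 10 components. That of Itgb6 in sensory neurons over granule cells went from 2.01 to 3.61 as a mean over nuclei and 3.92 with clusters on 10 components. That of Itga11 in fibroblasts over barrier fibroblasts went from 0.90 to 0.16 in the male library alone, and that of Lamb2 in perineurial over endothelial cells from 0.64 to 1.37 in the female library alone. Among the sign changes, Itgav in non-myelinating glia over leukocytes was -0.038 with nuclei of over 2000 UMIs, -0.059 in the female library alone and -0.41 with clusters on 10 components. Itga9 in perineurial over endothelial cells was -0.10 with nuclei of over 2000 UMIs and -0.18 in the female library alone. Lamb2 in perineurial over endothelial cells was -0.087, and Lama4 in perineurial cells over adipocytes -0.13, in the male library alone. Itgae in leukocytes over myelinating Schwann cells was -0.14 as a mean over nuclei, -0.13 in the male library alone and -0.093 with clusters on 10 components, and Itgb8 in non-myelinating glia over myelinating Schwann cells was -0.033 there. The cause was not tested. No paired analysis was possible because each sex had 1 library. Depth limits genes such as Itgae, Itgax, Itgad, Itgb2 and Itgal, of which few UMIs were counted in any class.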
